A study of Mus musculus with 15 samples.

Results

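CSR-HTGTS junctions were compared between SHLD1-deficient and SHLD1-proficient B cells that both lack XLF, in 4 libraries with junction positions and 2 with microhomology lengths only, of 15 libraries in the series. HTGTS (high-throughput genome-wide translocation sequencing) amplifies linearly from a fixed "bait" break, here in 5′Sμ, and reads the "prey" sequence joined to it. The 4 libraries were chosen by the number of Sγ1 junctions that the study printed beside each genotype, so that measured value selected them and the Sγ1 share is given below as a description with no test. Libraries X1 and X2 are printed as Xlf-/-, and SX1 and SX2 as Shld1-/- Xlf-/-.

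The deposited genotype labels are different for 2 of the 4. X1 is labelled WT, X2 XLF-/-, SX1 XLF-/- and SX2 Shld1-/-XLF-/-, so that only X2 and SX2 carry the same genotype in both places. Of the MH-only lists, M1 is labelled Shld1-/- and M2 Shld1-/-XLF-/-, and both were left outside the 2 sets. All 6 are splenic B cells of the C57BL/6 strain, cultured in RPMI1640 with serum and stimulated with alphaIgD-dextran, LPS and IL4, a mixture that leads to switching to IgG1. The Shld1 allele is a deletion of the coding sequence, and the methods describe age-matched adult littermates. The target-locus entry of the deposit also follows the label: a non-coding IgH Sm-Sa deletion for WT, an additional Ia deletion for XLF-/- and Shld1-/-, and 3 CBEs placed downstream of Cg2a for Shld1-/-XLF-/-, alleles that the methods do not mention. Junctions do not read the Shld1 or Xlf genes, so that neither genotype could be checked here.

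In class switch recombination (CSR), AID makes double-strand breaks (DSBs) in switch regions, long repeats upstream of each Igh constant gene, and joining of Sμ to a downstream switch region replaces IgM by another isotype. XLF is a factor of classical non-homologous end-joining. SHLD1 is a subunit of the shieldin complex, which acts downstream of 53BP1 and RIF1 and protects DSB ends against 5′ resection. Resected ends expose single strands that can pair through short stretches of shared sequence, called microhomology (MH), whereas a direct join has none.

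The lists of X1, X2, SX1 and SX2 held 2700, 4186, 3126 and 1590 junctions, of which 2181, 3684, 2424 and 1159 lay in the Igh window and 1015, 1917, 612 and 300 in the Sγ1 window. All 4 came from 1 sequencing run. Intervals below are Wilson intervals at 95% and account for counting error alone, because reads without molecular identifiers are not independent molecules. With 2 libraries a side, the exact two-sided permutation test over libraries cannot give a p below 0.333, so that no difference could pass a threshold of 0.05 and each is described by whether the sets overlap. The study describes independent mice for each genotype, and the labels do not say which library came from which mouse.

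The sequences of single junctions show what was joined. The first 4 are, in each library, the unflagged deletional Sγ1 junction with the longest prey among those with the most frequent MH of at least 4 bp of that library. Over deletional Sγ1 junctions this MH was CCAGGCA, in 12 of 164 junctions of X1, 33 of 421 of X2, 10 of 143 of SX1 and 4 of 61 of SX2, where AGCCAG was as frequent but had no unflagged junction. They are printed to show the same MH joined in both sets. Bait sequence runs up to the capitals, the capitals are bases that bait and prey share, and Sγ1 prey sequence follows.
X1: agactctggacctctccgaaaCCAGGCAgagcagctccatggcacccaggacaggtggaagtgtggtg
X2: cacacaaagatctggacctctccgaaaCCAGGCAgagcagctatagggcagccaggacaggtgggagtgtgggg
SX1: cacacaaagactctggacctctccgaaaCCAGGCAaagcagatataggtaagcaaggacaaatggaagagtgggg
SX2: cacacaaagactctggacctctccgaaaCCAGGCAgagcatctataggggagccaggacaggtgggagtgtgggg

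These preys start at position 114574507 (X1), 114572724 (X2), 114576723 (SX1) and 114573822 (SX2) of chromosome 12 in mm9, on the minus strand, from which Igh is read. The bait part of all 4 ends at position 114664875, although the X2 read lacks 1 bait base and the X1 bait starts later, and the preys lie 2.49, 4.28, 0.28 and 3.18 kb downstream of the upstream edge of core Sγ1. In the direct joins from X2 and SX2 chosen by the same rule, lower case is bait and capitals are prey.
X2 direct join: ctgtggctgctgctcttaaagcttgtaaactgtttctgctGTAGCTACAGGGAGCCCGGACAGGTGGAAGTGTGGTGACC
SX2 direct join: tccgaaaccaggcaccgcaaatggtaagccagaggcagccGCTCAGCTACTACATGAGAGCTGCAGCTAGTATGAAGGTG

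Their preys start at 114574449 (X2) and 114575802 (SX2), within core Sγ1 (mm9 chr12:114569000-114577000).

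The libraries were chosen by Sγ1 counts, and a lower Sγ1 share leaves more for the rest of Igh. Sγ1 held 46.5% of Igh junctions in X1 and 52.0% in X2, against 25.2% in SX1 and 25.9% in SX2. The Sμ window held 50.8% and 44.3% in X1 and X2 and 60.9% and 63.7% in SX1 and SX2, a difference that a lower Sγ1 share gives by arithmetic. Over Igh junctions outside Sγ1 only, Sμ held less in the SHLD1-deficient libraries, with 94.9% in X1 and 92.4% in X2 against 81.5% in SX1 and 85.9% in SX2. Igh junctions outside both windows made up 2.71% in X1 (2.10 to 3.47) and 3.64% in X2 (3.08 to 4.29), against 13.8% in SX1 (12.5 to 15.3) and 10.4% in SX2 (8.81 to 12.3). The set means were 3.17% ± 0.66 and 12.1% ± 2.39 (SD, n = 2 each), without overlap (exact permutation p = 0.333, the smallest possible), but this share has Sγ1 in its denominator. With Sγ1 junctions left out of the denominator, a choice made after the data were seen, the shares were 5.06%, 7.58%, 18.5% and 14.1% in X1, X2, SX1 and SX2. The stretches on either side of the windows were each higher in both SX libraries than in either X library. Between the windows lay 1.70% and 2.39% of Igh junctions in X1 and X2 and 8.50% and 6.04% in SX1 and SX2. Upstream of the Sμ window lay 0.32%, 0.16%, 1.57% and 1.64% in X1, X2, SX1 and SX2. The 10 kb immediately downstream of the Sγ1 window held 1 of 2181 Igh junctions in X1 and 8 of 3684 in X2. In SX1 and SX2 it held 67 of 2424 (2.76%) and 23 of 1159 (1.98%). The shares of these stretches have Sγ1 junctions in their denominator.

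Within Sγ1, the junction profile was flattened in both SHLD1-deficient libraries. The most used 500-bp bin of deletional junctions held 15.0% of the window in X1 and 13% in X2, in both centred 2.75 kb into the core, and 6.37% in SX1 and 6.67% in SX2, centred at 5.25 and 2.25 kb. Inversional junctions, more frequent in SX1 and SX2, count in the window and lower these bin shares by arithmetic. The values that follow are over deletional junctions only. The median deletional junction lay 3.39 and 3.46 kb downstream of the upstream core edge in X1 and X2 and 5.72 and 6.18 kb in SX1 and SX2. The 90th percentiles were 6.16 and 6.96 kb against 12.6 and 12 kb. From 2 to 4 kb into the core lay 51.0% and 51.5% of deletional junctions of X1 and X2, and 22.4% and 22.1% of those of SX1 and SX2. In the stretch from 10 to 12 kb, which is 2 to 4 kb past the core, the shares were 0.55%, 1.94%, 10.6% and 13.8%.

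**Figure D1:**
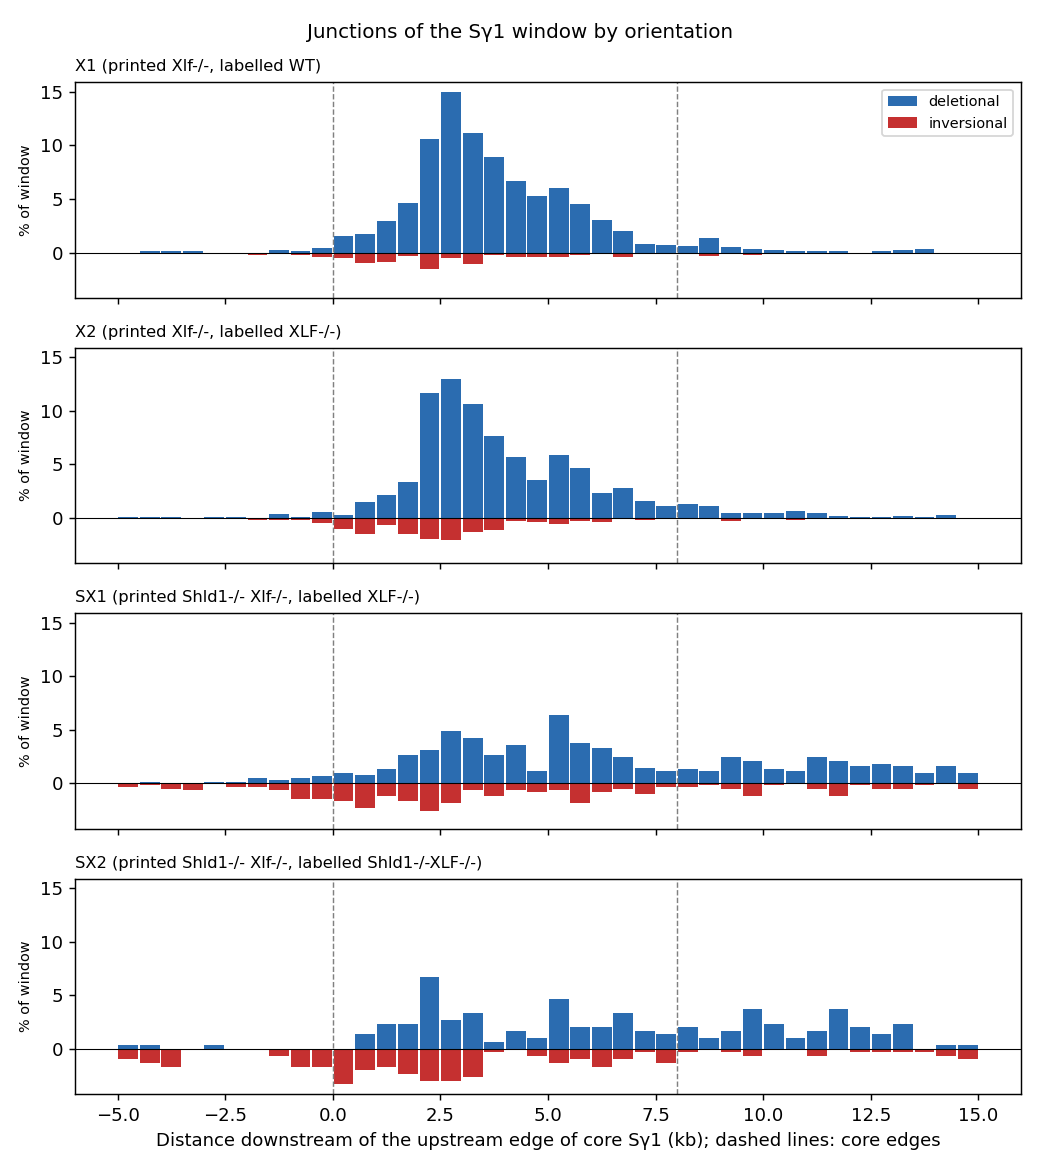
Junctions of the Sγ1 window in 500-bp bins as percent of the window's junctions in each library, against distance in kb downstream of the upstream edge of core Sγ1. Blue bars above 0 are deletional, red bars below 0 inversional, and dashed lines mark the core. X1 and X2 peak 2.75 kb into the core, at 15.0% and 13%, and no bin of SX1 or SX2 reaches 7%.

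Long resection, the share of deletional junctions in or downstream of the core that fell downstream of it, was 4.29% in X1 (39 of 909, interval 3.15 to 5.81) and 6.64% in X2 (106 of 1597, 5.52 to 7.97). It was 34.2% in SX1 (139 of 407, 29.7 to 38.9) and 38.7% in SX2 (70 of 181, 31.9 to 45.9). On average the sets stood at 5.46% ± 1.66 and 36.4% ± 3.20 (SD, n = 2 each), a ratio of 6.66, and the sets did not overlap (exact permutation p = 0.333). Between X2 and SX2 alone, the difference was 32.0 percentage points, with a Newcombe interval of 25.1 to 39.4 that compares these 2 libraries and not the genotypes. The 6 other C57BL/6 libraries with positions ranged from 0.40% to 27.0%.

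These junctions reach the exons that encode IgG1. Prey sequences were matched to GRCm38, where Ighg1, the constant gene of IgG1, occupies chr12:113325240-113330523 on the minus strand. Preys at or downstream of the start of the first exon, which encodes the first constant domain (CH1), were 3.85% and 5.82% of deletional junctions in or downstream of the core in X1 and X2, and 32.9% and 36.5% in SX1 and SX2. Such a join has lost all or part of that exon. Preys past the whole gene but within the window were rare in X1 (3 of 909), X2 (6 of 1597) and SX2 (2 of 181), and more frequent in SX1 (22 of 407, 5.41%, interval 3.60 to 8.05), so that the SHLD1-deficient libraries differed from each other in this respect. All 424 preys of the 4 libraries between the core and the downstream end of the window matched at the same distance between the 2 builds.

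Inversional junctions, in which bait and prey lie on opposite strands and the intervening segment is turned around, were more frequent at Sγ1 in the SHLD1-deficient libraries. Their share of the window was 9.46% in X1 (7.81 to 11.4) and 15.4% in X2 (13.9 to 17.1), against 31.0% in SX1 (27.5 to 34.8) and 38.7% in SX2 (33.3 to 44.3). Averages of the sets were 12.4% ± 4.23 and 34.9% ± 5.39 (SD, n = 2 each), without overlap (exact permutation p = 0.333). The difference did not rest on junctions outside the core: within core Sγ1, 8.42%, 14.7%, 30.7% and 41.0% were inversional in X1, X2, SX1 and SX2. Outside the core, the shares lay closer together, at 24.6%, 23.5%, 31.6% and 34.8%. The other 6 libraries ranged from 4.27% to 29.4% over the window.

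In an inversional join the retained prey lies upstream of the junction, so that loss of bases moves the junction upstream. These junctions had tails on both sides of the core. Of the inversional junctions located in the core or further upstream, 10.1% of X1 (9 of 89, 5.41 to 18.1) and 9.54% of X2 (27 of 283, 6.64 to 13.5) lay upstream of it, against 23.2% of SX1 (36 of 155, 17.3 to 30.5) and 23.8% of SX2 (24 of 101, 16.5 to 32.9). On the opposite side, downstream of the core, lay 7.29% and 4.39% of all inversional Sγ1 junctions in X1 and X2. In SX1 and SX2 these were 18.4% (35 of 190) and 12.9% (15 of 116). Deletional junctions upstream of the core were few in all 4, from 1.09% in X1 to 3.55% in SX1 of deletional junctions. SX2 had 3 of them.

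Sμ, the donor switch region that holds the bait, showed the same kind of spread. Deletional junctions downstream of the bait in the Sμ window include intra-switch joins and joins past the switch repeats. Junctions closer than 500 bp to the bait end were left out. The median distance downstream of the bait end was 1.99 kb in X1, 2.05 kb in X2, 3.53 kb in SX1 and 4.06 kb in SX2, and the 90th percentile was 5.00, 5.47, 8.75 and 8.92 kb. The tail runs into Ighm (GRCm38 chr12:113418558-113422730, minus strand), the constant gene of IgM. Preys at or downstream of its first exon made up 16.6% (14 to 19.7) and 20.6% (18.1 to 23.3) of these deletional junctions in X1 and X2, and 47.1% (43.9 to 50.4) and 52.2% (47.4 to 57) in SX1 and SX2. As set means these were 18.6% ± 2.80 and 49.7% ± 3.61 (SD, n = 2 each), and 30.5% and 63.0% without the rows that the authors' pipeline flagged for mapping quality. Preys past the whole of Ighm, toward the IgD gene Ighd, were 2.90% and 3.18% against 12.5% and 14.5%.

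**Figure D2:**
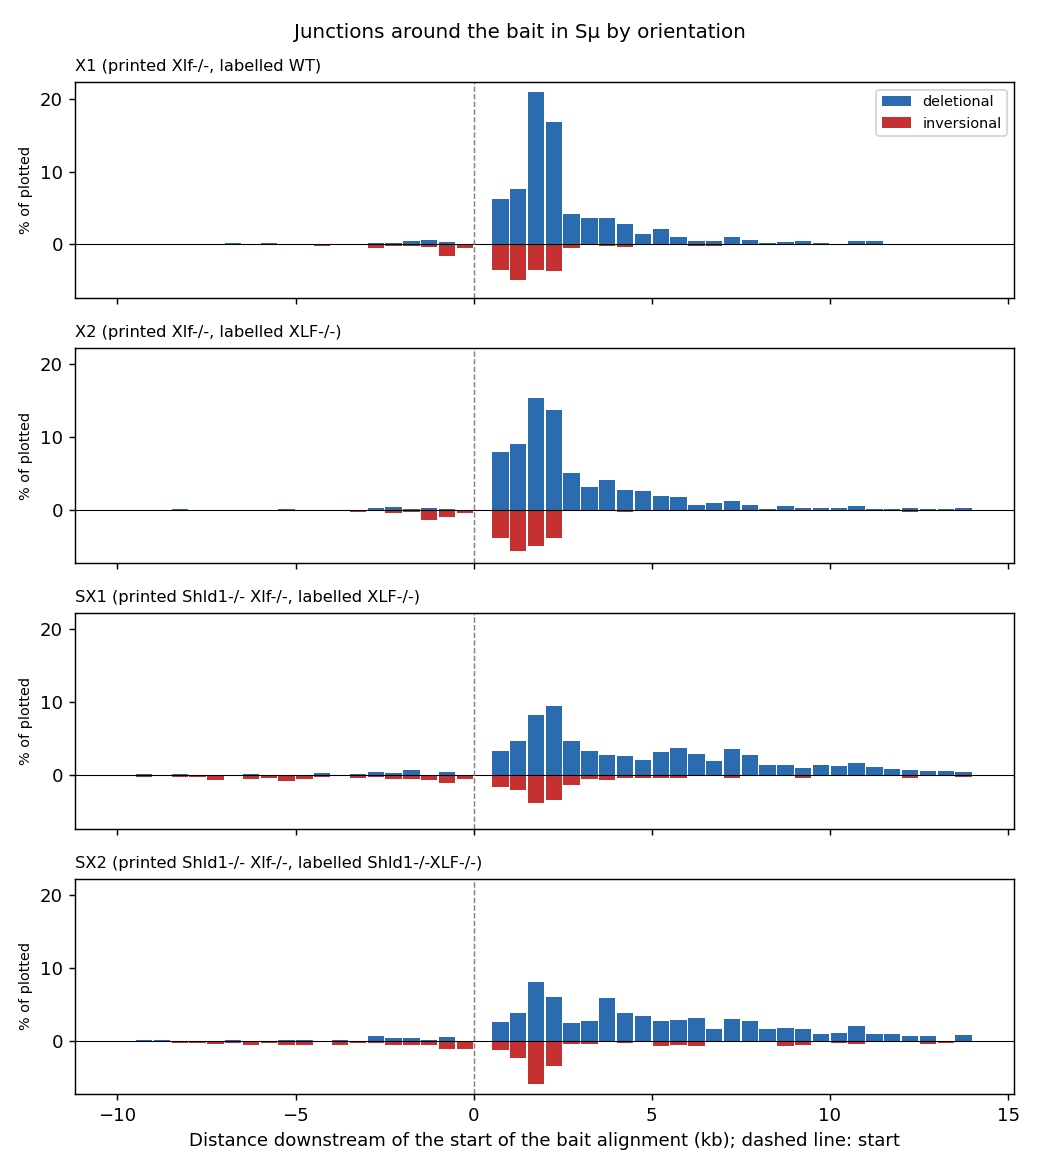
Junctions around the bait in 500-bp bins as percent of those plotted in each library, against distance in kb downstream of the start of the bait alignment (dashed line). Blue bars above 0 are on the strand of the bait (deletional when downstream of it), red bars below 0 on the opposite strand, and junctions closer than 500 bp to the bait end are left out. The highest deletional bin holds 20.9% in X1, 15.4% in X2, 9.54% in SX1 and 8.06% in SX2.

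Orientation at Sμ was less different between the sets than at Sγ1. Inversional junctions were 21.5% in X1 (18.9 to 24.4), 24.6% in X2 (22.3 to 27.0), 24.6% in SX1 (22.3 to 27.0) and 30.0% in SX2 (26.4 to 33.7). X2 and SX1 were level, and the set means of 23.0% ± 2.15 and 27.3% ± 3.81 (SD, n = 2 each; exact permutation p = 0.333) changed order without the flagged rows, to 25.2% and 25.0%. Where the inversional junctions lay did differ: 19.4% and 18.5% of them were upstream of the bait in X1 and X2, against 31.8% (26.8 to 37.2) and 32.6% (26.2 to 39.7) in SX1 and SX2.

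Junctions upstream of the bait reached the variable part of Igh, of which the Sμ and Igh windows hold only the near end. Positions here are those of the reference genome. Developing B cells rearrange V, D and J segments in this part, and the actual distances in these cells were not measured. By the match to GRCm38, junctions between the Ighj segments (chr12:113428514-113429833) and the last annotated Ighv segment (ending at 116010093) were 1.81% of all junctions in X1 (49 of 2700, 1.38 to 2.39) and 1.70% in X2 (71 of 4186, 1.35 to 2.13). They were 12.7% in SX1 (396 of 3126, 11.5 to 13.9) and 12.4% in SX2 (197 of 1590, 10.9 to 14.1). The averages per set came to 1.76% ± 0.08 and 12.5% ± 0.20 (SD, n = 2 each), a ratio of 7.14. Shares of all junctions have Sγ1 junctions, whose counts chose the libraries, in their denominator. A lower Sγ1 share raises them by arithmetic, so that part of this ratio follows from the choice. Of these, 18 (X1), 19 (X2), 98 (SX1) and 54 (SX2) lay inside the Igh window and are also in the shares above. Beyond the Igh window alone lay 1.15%, 1.24%, 9.53% and 8.99% of all junctions. This measure was chosen after the data were seen and has no test. In X2, SX1 and SX2 about as many lay on each side of the first Ighv segment, and in X1 more lay before it. Before it were 1.33%, 0.88%, 5.98% and 6.23% of all junctions in X1, X2, SX1 and SX2, and within the span of the 183 annotated Ighv segments, 0.48%, 0.81%, 6.69% and 6.16%.

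Most of these upstream junctions were on the strand opposite to the bait, the orientation of an inversion: 69.4% of 49 in X1, 70.4% of 71 in X2, 81.1% of 396 in SX1 and 83.8% of 197 in SX2. They were not repeats of a few sites, since SX1 held 383 and SX2 187 distinct combinations of position and strand, in 108 and 73 bins of 10 kb. The fullest of these bins held 76 junctions in SX1 and 39 in SX2. Direct joins among them, without insertion, were 5.26% (X1), 3.92% (X2), 5.26% (SX1) and 6.40% (SX2), and the intervals overlapped throughout. The rest of chromosome 12, outside the Igh window and this span, held 1.04%, 0.91%, 0.64% and 1.38%, so that the increase did not extend to the whole chromosome.

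**Figure D3:**
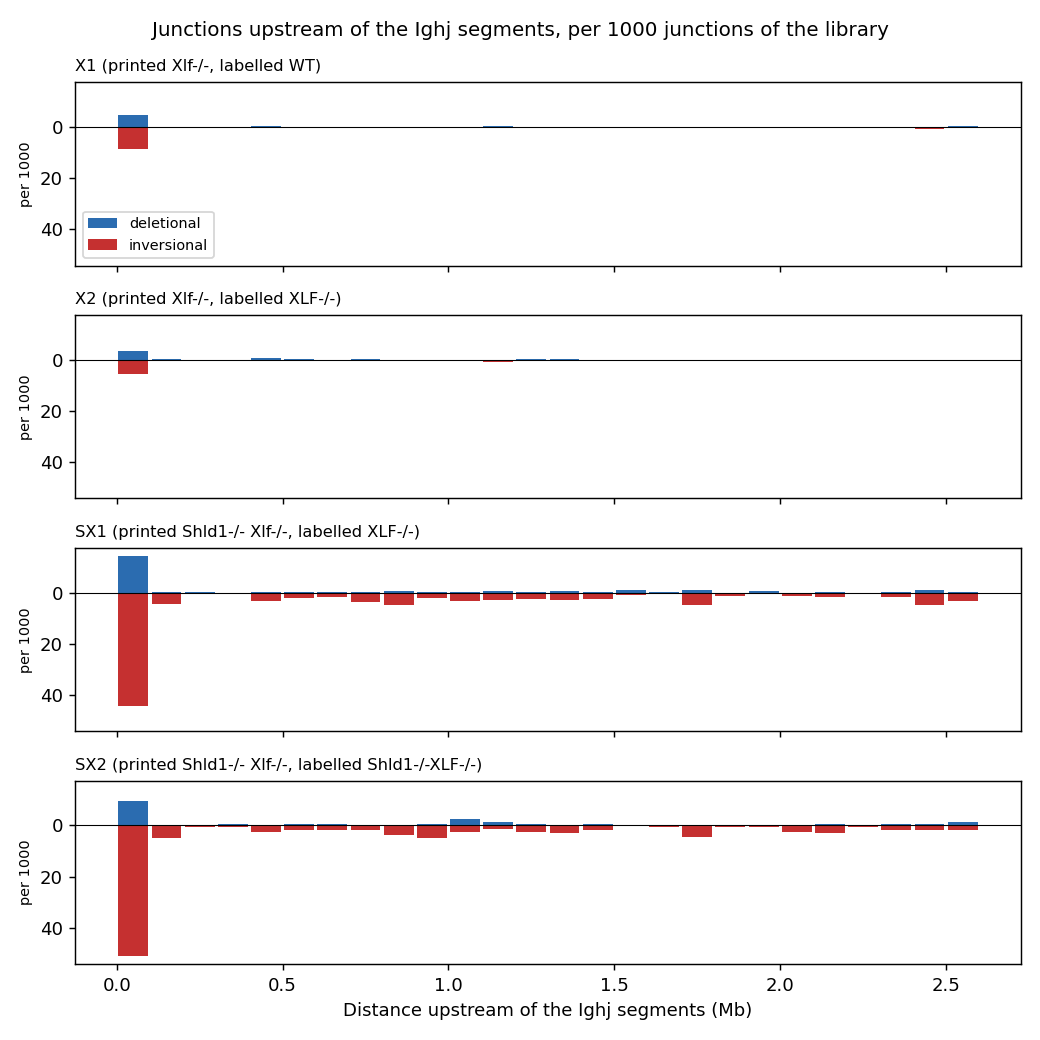
Junctions upstream of the Ighj segments per 1000 junctions of each library, in bins of 0.1 Mb against distance in Mb upstream on the GRCm38 reference map. Blue bars above 0 are on the strand of the bait and red bars below 0 on the opposite strand. In SX1 and SX2 the first bin is the highest and opposite-strand junctions follow along most of the span, while X1 and X2 have few beyond the first bin.

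MH use at Sγ1 moved away from direct joins in the SHLD1-deficient libraries. Of Sγ1 junctions without insertion, direct joins were 18.2% in X1 (167 of 918, 15.8 to 20.8) and 13% in X2 (221 of 1702, 11.5 to 14.7), against 5.50% in SX1 (30 of 545, 3.88 to 7.75) and 5.73% in SX2 (15 of 262, 3.50 to 9.23). Averaged by set, the shares were 15.6% ± 3.68 and 5.61% ± 0.16 (SD, n = 2 each), without overlap (exact permutation p = 0.333). Joins with 1 bp of MH fell in the same order, from 21.5% and 16.2% to 9.54% and 8.78%. Joins with 2 bp took 21.1% and 21.2% in X1 and X2 and 24.0% and 30.2% in SX1 and SX2. At 3 bp the sets overlapped, with 19.0%, 22.1%, 26.1% and 17.6%.

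MH of more than 3 bp made up 20.3% of X1 (17.8 to 23.0) and 27.5% of X2 (25.4 to 29.7), against 34.9% of SX1 (31.0 to 39.0) and 37.8% of SX2 (32.1 to 43.8). By set, the averages were 23.9% ± 5.12 and 36.3% ± 2.07 (SD, n = 2 each; exact permutation p = 0.333). The gain was mainly in lengths of 4 to 6 bp, with 15.9% and 21.0% against 26.4% and 30.9%, while 7 bp or more took 4.36%, 6.46%, 8.44% and 6.87%, of which X2 and SX2 lay within each other's intervals. Mean MH length was 2.30, 2.76, 3.30 and 3.16 bp in X1, X2, SX1 and SX2, and the longest MH was 12, 14, 12 and 11 bp. Direct joins in the other 6 libraries ranged from 12.7% to 31.0%, above both SX libraries.

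**Figure D4:**
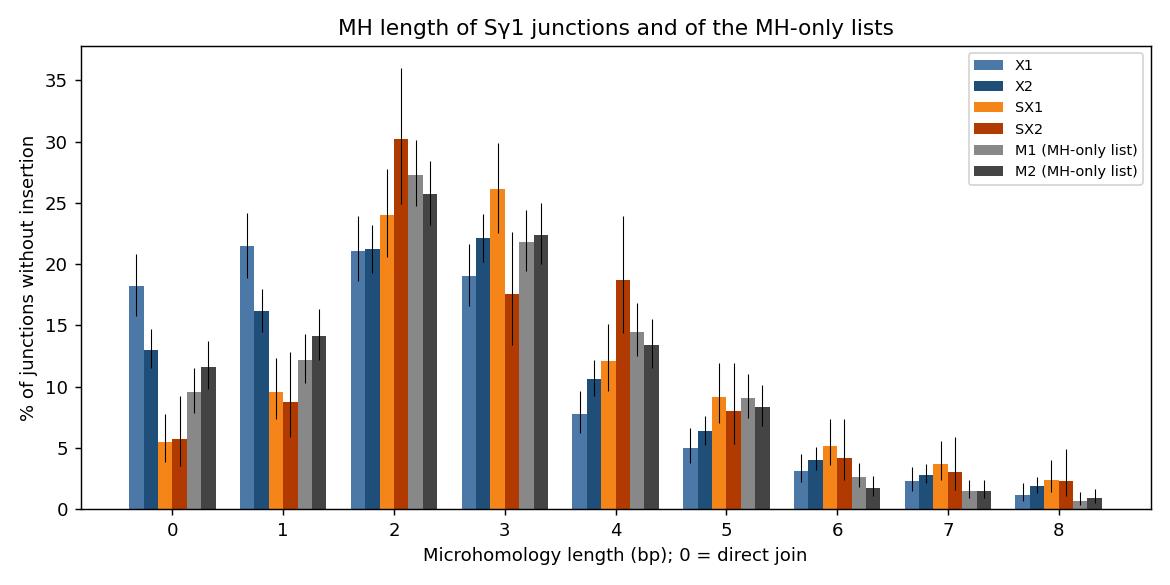
Share of junctions without insertion at each MH length from 0 to 8 bp, for Sγ1 junctions of X1, X2, SX1 and SX2 and for the MH-only lists M1 and M2, with 95% Wilson intervals as error bars. At 0 bp, SX1 and SX2 are lowest (5.50% and 5.73%), M1 and M2 follow (9.53% and 11.6%), and X2 and X1 are highest (13% and 18.2%).

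The shift in direct joins was also present with orientation held alike and, for deletional joins, within the core. Positions inside the core still differed between the sets. Among deletional joins within core Sγ1, direct joins were 19.3% (16.8 to 22.2) and 14.4% (12.6 to 16.4) in X1 and X2 and 7.76% (5.02 to 11.8) and 6.93% (3.40 to 13.6) in SX1 and SX2. Among inversional joins of the whole Sγ1 window, direct joins were 15.0% and 8.14% against 4.82% and 5.10%. The interval of each X library (8.79 to 24.4 and 5.39 to 12.1) overlapped those of both SX libraries (2.46 to 9.22 and 2.20 to 11.4). MH of more than 3 bp among deletional core joins was 19.3%, 28.6%, 42.9% and 33.7%, and the intervals of X2 (26.3 to 31.1) and SX2 (25.2 to 43.3) overlapped.

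Whether joins with long resection used more MH could not be settled at this depth. MH of more than 3 bp in the tail downstream of the core was 21.2% in X1 (7 of 33), 36.3% in X2 (33 of 91), 28.9% in SX1 (35 of 121) and 43.3% in SX2 (26 of 60). Subtracting the core share of the same library gave 1.87, 7.63, -13.9 and 9.67 percentage points. SX1 went the other way from the rest, and the sets overlapped (exact permutation p = 1).

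Insertions of bases from neither side overlapped between the sets at Sγ1. They were found at 9.56% (7.90 to 11.5), 11.2% (9.88 to 12.7), 10.9% (8.71 to 13.7) and 12.7% (9.37 to 16.9) of Sγ1 junctions in X1, X2, SX1 and SX2 (exact permutation p = 0.667). Insertions of 5 bp or more were 4.04%, 4.07%, 4.08% and 4%. At Sμ, insertions were lower in both SX libraries, at 15.2% (13.3 to 17.3) and 16.6% (13.8 to 19.7), than in X1 and X2, at 19.2% (16.7 to 22.0) and 18.4% (16.3 to 20.6). The intervals of both SX libraries overlapped those of both X libraries.

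At Sμ the MH shift was smaller. Direct joins were 13.6% (11.3 to 16.4) and 11.1% (9.29 to 13.1) in X1 and X2 and 7.51% (6.07 to 9.26) and 7.14% (5.20 to 9.73) in SX1 and SX2. MH of more than 3 bp was 23.4%, 30.2%, 31.4% and 28.2%, and the sets overlapped.

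The 943 Sγ1 junctions with MH of 4 bp or more used 275 different MH sequences, and the 5 most frequent over the 4 libraries were CCAGGCA (59 junctions), AGCCAG (40), CCAG (35), AGCT (32) and ACAG (30). AGCT is the hotspot motif of AID that switch repeats are rich in. CCAGGCA was used by 12 of 186 such junctions in X1, 33 of 468 in X2, 10 of 190 in SX1 and 4 of 99 in SX2, with 6.45%, 7.05%, 5.26% and 4.04%, and its Wilson intervals all overlapped. It was used at 1 bait end, the one in capitals in the printed junctions, and at 9, 20, 6 and 4 prey positions. Only 5 of 12, 11 of 33, 1 of 10 and 2 of 4 of its deletional junctions lacked a mapping-quality flag, in X1, X2, SX1 and SX2. The printed SX1 junction was thus the only unflagged one of that library. AGCT was used by 5.38%, 3.21%, 1.05% and 5.05%, with no common order of the sets.

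The MH-only lists M1 and M2 hold 1028 and 1093 lengths from 0 to 10 bp, with no position and no insertion. The study plotted MH use of Sμ-Sγ1 junctions, and neither list states its own region. M1 had 9.53% direct joins (7.89 to 11.5) and M2 11.6% (9.85 to 13.7), between X2 and the SX libraries. MH of more than 3 bp was 29.2% (26.5 to 32.0) in M1 and 26.2% (23.6 to 28.9) in M2, and mean length 2.75 and 2.59 bp. The distance between spectra over 0 to 10 bp, as the percentage of junctions that would have to change length, was 4.88% between M1 and M2. Against Sγ1 spectra, M1 was at 20% from X1, 12.5% from X2, 11.8% from SX1 and 12.3% from SX2. M2 was at 16.9%, 9.17%, 13% and 16.2%. SX1 and SX2 were themselves 12.7% apart, and X1 and X2 10.3%.

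Against the spectra of all Igh junctions, both lists lay closer to each of the 4 libraries. These spectra also rest on more junctions (978 in SX2, against 262 at Sγ1), and low counts enlarge such a distance. SX1 and SX2 themselves were 5.02% apart here, so that region and depth were not told apart. M1 was at 8.46% from X2, 6.63% from SX1 and 4.96% from SX2, and M2 at 4.98%, 7.72% and 7.75%, while X1 was at 15.3% and 11.9%. The nearest library thus changed with the region compared for M1 and stayed X2 for M2. Since M2 carries the double-mutant label and had more direct joins than either SX library, its label and its spectrum are given here side by side and neither list was assigned to a set.

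Joining to other chromosomes did not separate the sets. Junctions outside chromosome 12 were 17% of all in X1 (15.7 to 18.5), 9.84% in X2 (8.98 to 10.8), 12.3% in SX1 (11.2 to 13.5) and 16.7% in SX2 (15.0 to 18.6), with the 2 X libraries as the highest and the lowest (exact permutation p = 1). They were spread widely, with at most 8.27% on 1 chromosome and at most 5 junctions in any 100-kb bin.

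**Figure D5:**
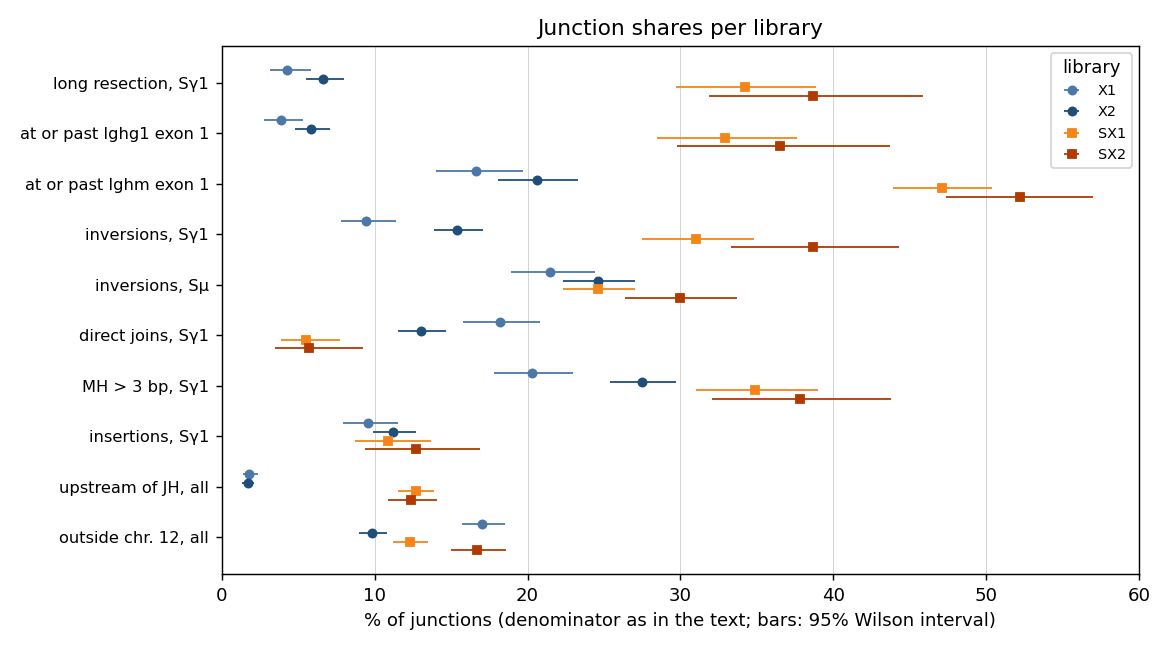
Percent of junctions per library for 10 measures with their 95% Wilson intervals (circles: X1 and X2; squares: SX1 and SX2), each with the denominator given in the text. Long resection, joins at or past the first exons of Ighg1 and Ighm, and junctions upstream of the Ighj segments (JH) separate the sets widely, while insertions at Sγ1 and junctions outside chromosome 12 overlap.

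Both genotype readings gave the same directions of the set means for the main Sγ1 measures. They are not independent, since X2 and SX2 stand on the same sides in both. With X2 and SX2 only, the pair with 1 genotype in both places, the differences were 32.0 percentage points for long resection, 23.2 for inversions, -7.26 for direct joins (Newcombe interval -10 to -3.44) and 10.3 for MH of more than 3 bp (4.23 to 16.6). Grouped by deposited label, with 2 libraries labelled Shld1-/-XLF-/- against 3 labelled XLF-/-, long resection was 31.5% against 13.8% (exact permutation p = 0.300) and inversions at Sγ1 34.0% against 17.2% (p = 0.300, exact). In that grouping direct joins were 9.23% against 16.5% (exact permutation p = 0.700), MH of more than 3 bp 33.2% against 24.6% (p = 0.400, exact) and mean MH length 2.94 against 2.56 bp (p = 0.9, exact). The smallest p that 2 against 3 libraries can give is 0.1. The label groups overlapped in each of these measures. In long resection, direct joins and MH of more than 3 bp, SX1, labelled XLF-/-, stood at 34.2%, 5.50% and 34.9%. Each was past the mean of the Shld1-/-XLF-/- group. In inversions at Sγ1 it stood at 31.0%, below that group's mean but above the highest of the other libraries (29.4%).

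The mapping-quality flag also moved with the sets. It was on 36.8% and 39.3% of Sγ1 junctions in X1 and X2 and on 15.7% and 17.3% in SX1 and SX2. No deletional junction downstream of the core was flagged in any library, and none upstream of the Ighj segments. Without flagged rows, long resection was 9.09% and 44.3% (set means for X and SX), joins at or past the first exon of Ighg1 8.05% and 42.2%, and direct joins 13.6% and 5.08%.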

How the data were processed

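Junction lists of CSR-HTGTS libraries were analysed. The authors processed reads with their published HTGTS pipeline (Bowtie2, genome build mm9, per the labels) and deposited lists in which each line is a junction, with the position and strand of bait and prey, their place on the read and filter flags, an other unit without normalization. For 2 libraries the authors deposited single MH lengths beside a tally of counts and percent values. The single lengths were used with the sign reversed.

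Libraries, measures and lists were chosen with earlier results of these data known. Windows on mm9 chromosome 12 were 114450000-114700000 (Igh), 114562000-114582000 (Sγ1), 114653500-114673500 (Sμ) and 114569000-114577000 (core Sγ1, read from dashed lines in a plot of the study). Depth was 1590 to 4186 junctions per library. MH length is the overlap of bait and prey on the read, negative values are insertions, and equal strands are deletional. All rows were counted. Tests were exact two-sided permutation tests over library values. Regions were named when holding at least 1% of Igh junctions in a set, the 5 most frequent MH sequences of at least 4 bp were named, and junctions were printed by the rule given beside them.

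Prey sequences were matched to GRCm38 chromosome 12 with bwa 0.7.19-r1273 (seed 15, minimum score 20), where GENCODE vM21 gave the exons. Of 9448 Igh preys 9445 matched, 89.4% at 1 common distance between builds and the others in switch repeats for the most part. No coordinates were converted. Alternatives were flagged rows, collapsed junctions, orientation, region, thresholds, single libraries and grouping by label. Software was Python 3.11.15 with scipy 1.17.1, pandas 2.3.3 and numpy 2.4.6, and the measures were tested on simulated lists with known shares. The other libraries of the series were used as ranges only.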

Additional observations from a re-analysis of the deposited data

How the results depend on the processing

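Of 142 alternatives, 126 kept the direction of the result (and, for values with no test, stayed within the spread between libraries of a set). Another 9 kept the direction but moved the value past that spread, to a smaller or a larger difference, and 7 reversed the direction. All differences are SHLD1-deficient minus SHLD1-proficient, in percentage points unless said. Without rows flagged for mapping quality, the difference in the Sγ1 share went from -23.72 to -19.75, and by deposited label to -18.37. With X2 and SX2 only, direct joins went from -9.97 to -7.26, mean MH from 0.70 to 0.40 bp, Igh junctions outside both windows from 8.96 to 6.80 and junctions outside chromosome 12 from 1.07 to 6.89. Reversals were limited to 3 results that were small or overlapping. Inversions at Sμ went from 4.22 to -0.15 without flagged rows, and junctions outside chromosome 12 to -1.94. Leaving out 1 library gave -2.53 (without X2) to 4.66 for the latter, with -1.16 without SX2. MH of more than 3 bp in the tail minus the core went from -6.88 to between -18.68 (without SX2) and 4.92 (without SX1) when 1 library was left out, to 2.04 with X2 and SX2 only and to 11.63 by label (exact permutation p = 0.200). The causes were not tested. Long resection, inversions at Sγ1, direct joins and MH of more than 3 bp kept their direction under every alternative run. Leaving out 1 of the 2 libraries of a set cannot, by arithmetic, move a difference beyond the spread used here. For those alternatives, which are in the counts above, only the direction was informative. No paired analysis was possible because the labels give no replicate numbers that pair libraries. Depth limits the tail, where X1 had 33 and SX2 60 deletional junctions without insertion.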
